A study of Rattus norvegicus with 8 samples.

Results

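The RNAs described here are the small structural RNAs of the cell and the ribosomal RNA left in the libraries: 7SK, the RNA of the signal recognition particle (SRP RNA), the spliceosomal U RNAs, 5S and 5.8S ribosomal RNA (rRNA), and LOC257642, which the deposited gene table describes as an rRNA promoter binding protein and which is grouped with the rRNA by the rule used to choose members. Members were all rows of that table with 1 of these names and a value above 0 in at least 4 of the 8 libraries. The rule kept 144 of the 243 rows with such names, among 27742 rows in all. The values came from thoracic aorta of male wild-type Sprague Dawley rats, given as 12 weeks old and 180 to 200 g. Nitroglycerin was injected subcutaneously for 3 days, 3 doses of 100 mg/kg on each, before 4 of the libraries (N1 to N4), and ethanol, its vehicle, before the other 4 (C1 to C4). All 8 were made from total RNA depleted of rRNA with the Ribo-Zero Gold kit. The labels do not tie libraries to single animals, so spreads and p-values concern these samples and may be technical.

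7SK RNA holds the elongation factor P-TEFb in an inactive particle. SRP RNA is the scaffold of the particle that carries ribosomes making secreted proteins to the endoplasmic reticulum. U1 and U2 recognise the 5′ splice site and the branch point of introns, and U4 brings U6 to the spliceosome and is released before it becomes active. 5.8S rRNA is cut from the same RNA polymerase I precursor as 18S and 28S rRNA, whereas 5S rRNA, 7SK, SRP RNA and U6 are made by RNA polymerase III. Several of them have many gene copies and pseudogenes, and these structural RNAs carry no poly(A) tail.

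The members comprised 60 rows named 7SK, 21 SRP RNA, 21 U2, 16 U1, 9 5.8S rRNA, 5 U4, 5 U6, 4 LOC257642, 2 5S rRNA and 1 U11. The names U12, U3 and U6atac were present but had no row above 0 in 4 libraries, and no row was named Y_RNA. An annotated transcript was part of 124 members, and the other 20 held only assembled transcripts. Just inside the rule, 16 rows were above 0 in exactly 4 libraries, with mean values of 0.0423 to 674.65 FPKM (fragments mapped, scaled to the transcript's length and the library's size). Just outside, 20 rows were above 0 in exactly 3, with means of 0.00155 to 44.5 FPKM. Only 80 members were above 0 in every library.

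The members were a large part of every library. Their part of the summed FPKM was 29.9% in C1, 24.2% in C2, 28.3% in C3 and 25.5% in C4. It was 26.1% in N1, 25.7% in N2, 24.9% in N3 and 29.1% in N4. The groups overlapped, with 27.0 ± 2.58% in controls and 26.5 ± 1.82% after nitroglycerin (mean ± SD, n = 4 per group). FPKM divides by transcript length, so a short RNA gives a high value per read and these percentages are not percentages of reads. By mean level, 13 members were at 1000 FPKM or more, 28 at 100 to 1000, 6 at 10 to 100, 32 at 1 to 10 and 65 under 1. Members made up 5 of the 10 highest rows of the whole table and 38 of the highest 100.

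The total was split into a sum called ribosomal here (5.8S rRNA and LOC257642) and a small RNA sum that includes 5S rRNA. Their group means differed in opposite directions. The 5.8S and LOC257642 rows together held 20.6, 9.41, 16.1 and 14.5% in C1 to C4, and 12.4, 10.5, 9.27 and 10.5% in N1 to N4. Nitroglycerin minus control, the class means differed by -1.81 percentage points for 5.8S and -2.65 for LOC257642, each with overlapping groups. The remaining classes held 9.30, 14.8, 12.2 and 11% in C1 to C4, and 13.7, 15.3, 15.6 and 18.5% in N1 to N4. In both sums C2 lay among the nitroglycerin libraries, and C1 had the most ribosomal and the least small RNA. The mean difference was -4.46 percentage points for the ribosomal rows, and -2.64 without C1. Without C2 it was -6.37 and the groups did not overlap. For the small RNA rows it was 3.95, with no overlap without C2 (4.94) or without N1 (4.64). The groups also did not overlap when only rows above 0 in every library were summed. Those sums were 6.20 to 8.22% in controls and 9.37 to 12.6% after nitroglycerin. The share ratio of all the small RNA rows was 1.33, and the median of the 12977 rows tested was 1.35. Of those tested rows, 23.5% had all nitroglycerin shares above all control shares. Libraries were also rescaled so that the median gene did not differ. The small RNA sum then overlapped, at 21697 to 26730 FPKM in controls and 19995 to 28542 after nitroglycerin.

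**Figure D1:**
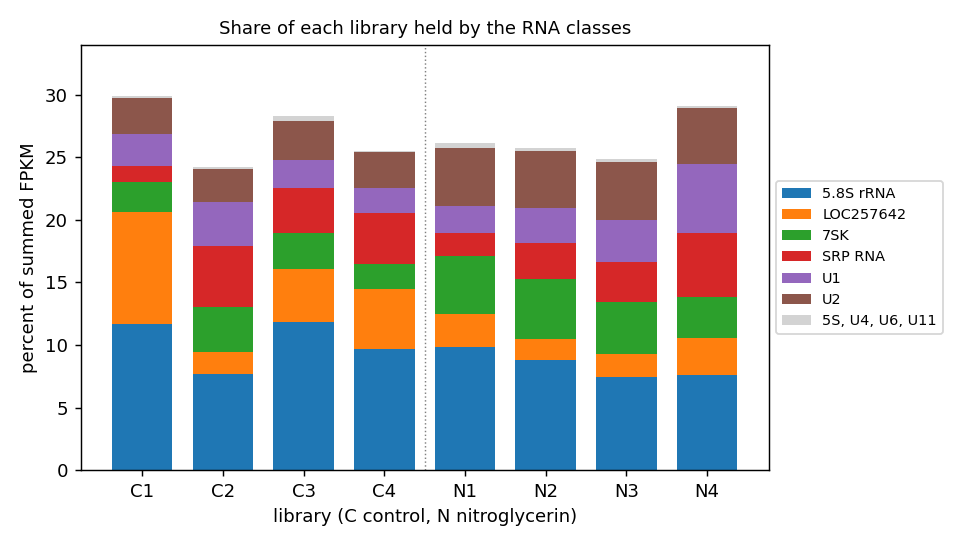
Stacked bars give the percent of the summed FPKM of each library (C1 to C4 control, N1 to N4 nitroglycerin) held by each RNA class. The whole bars end between 24.2 and 29.9%, while the U2 segment is 2.66 to 3.10% in controls and 4.49 to 4.67% after nitroglycerin.

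U2 was the 1 class of the 10 whose share did not overlap between groups. It held 2.87, 2.66, 3.10 and 2.93% of the summed FPKM in C1 to C4 and 4.64, 4.61, 4.67 and 4.49% in N1 to N4. The means were 2.89 ± 0.182% and 4.60 ± 0.0786%, a ratio of 1.59, and the groups stayed apart in every alternative share and without any 1 library. Among single rows of the table, 23.5% of the 12977 tested also had all nitroglycerin shares above all control shares (0.2% had all below), and the median tested row had a share ratio of 1.35. When libraries were rescaled so that the median gene did not differ (by median-of-ratios factors), summed U2 was 4595 to 8246 in controls and 6791 to 7120 after nitroglycerin. On that scale the groups overlapped, the highest value being C1 and the lowest C2.

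Most of the U2 level lay in 7 rows, of which 4 had nearly the same value in every library. In each library the rows MSTRG.14698, MSTRG.3847, MSTRG.3535 and MSTRG.2314 differed from each other by at most 4.43%. MSTRG.3847 read 821, 534, 641 and 719 FPKM in C1 to C4 and 1055, 647, 1116 and 1349 in N1 to N4. Its lowest nitroglycerin value, in N2, fell inside the control range. In N2 the rows MSTRG.12685 and MSTRG.21270 were listed at 0, and the copy MSTRG.21269 stood at 4784 FPKM, 7.39 times MSTRG.3847. In C2, where MSTRG.21270 was listed at 0, MSTRG.21269 was 3.02 times MSTRG.3847, and in N4, where MSTRG.21270 was also listed at 0, it was 0.683 times MSTRG.3847. In the other 5 libraries both copies were within 1% of each other. Summed over the 7 rows, C1 to C4 read 5746, 4286, 4490 and 5049 FPKM, and N1 to N4 read 7384, 7401, 7797 and 7681. The sum was steadier within a group than its rows, and N2 no longer stood apart.

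7SK, the most numerous class, had positive differences in 14 of its 17 tested rows (82.4%), against 86.6% of all rows tested. None of the 17 passed the test. The row MSTRG.21764 read 1373, 1590.1, 1285 and 1053 FPKM in C1 to C4 and 2214, 2133, 2082 and 2564 in N1 to N4. All nitroglycerin values lay above all control values, and the log2 difference was 0.77 (SE 0.186, limma adjusted p = 0.0593), which did not pass the threshold of 0.05. MSTRG.9016 had the same order, at 294 to 435 FPKM in controls and 501 to 677 after nitroglycerin (log2 difference 0.65, limma adjusted p = 0.0670). It was 0.241 to 0.279 times MSTRG.21764 in every library, so these rows are not independent observations. The highest 7SK row, MSTRG.20171, read 1919.9, 2380.2, 1874 and 1512 FPKM in C1 to C4 and 3221, 3004, 3004 and 0 in N1 to N4. It was 1.40 to 1.5 times MSTRG.21764 in the 7 libraries where it was above 0. The row at 0 in N4 placed that library lowest of its group in the class sum. The 7SK share was 2.45, 3.64, 2.85 and 2.00% in C1 to C4 and 4.70, 4.76, 4.18 and 3.30% in N1 to N4, so N4 fell below C2. Summed over the 7SK rows above 0 in every library, controls held 1.05 to 1.67% and nitroglycerin libraries 2.00 to 2.44%. The class share ratio was 1.55, against a median of 1.35 over all rows tested. Of those rows, 23.5% had all nitroglycerin shares above all control shares. Rescaled as for U2, summed 7SK overlapped, at 4028 to 7054 FPKM in controls and 5083 to 7345 after nitroglycerin. The rescaled log2 difference of MSTRG.21764 was 0.38 (limma adjusted p = 0.479).

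**Figure D2:**
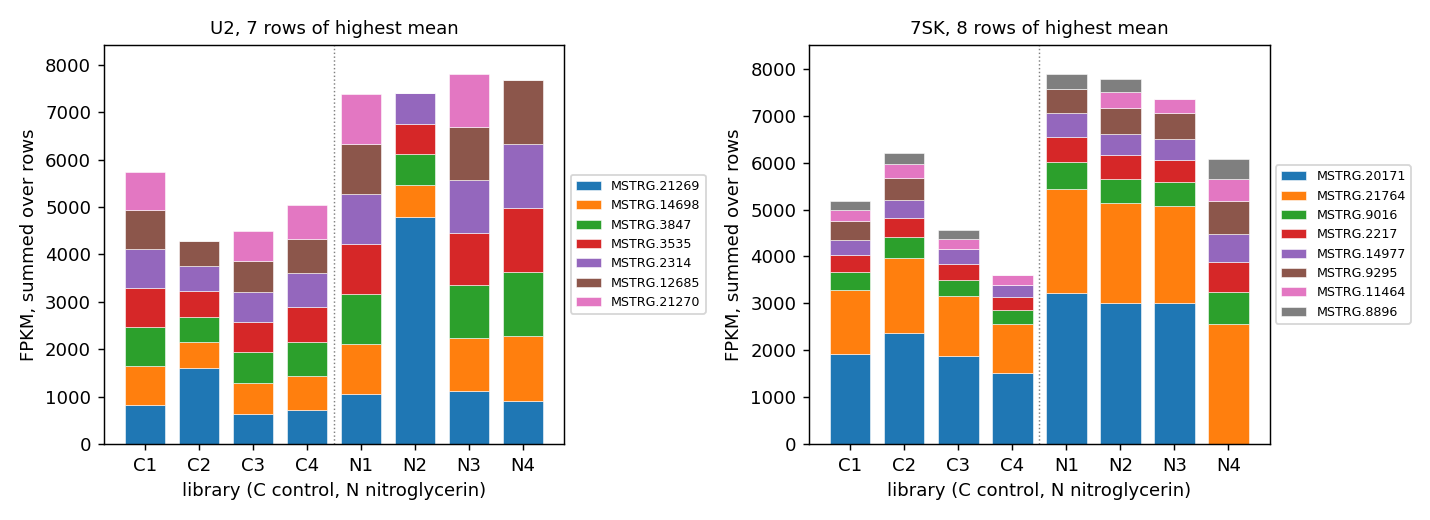
Bars stack the FPKM of the 7 highest U2 rows (left) and the 8 highest 7SK rows (right) in each library. U2 reaches 7384 to 7797 in every nitroglycerin library although MSTRG.21269 alone makes up 4784 of it in N2, and MSTRG.20171 is missing from the 7SK bar of N4.

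U1 varied more between libraries of 1 group than between groups. Its share was 2.52, 3.53, 2.30 and 1.92% in C1 to C4 and 2.14, 2.76, 3.31 and 5.53% in N1 to N4. MSTRG.12646 read 1629, 2347, 0 and 1313 FPKM in C1 to C4 and 0, 0, 2446 and 3808 in N1 to N4, so it was at 0 in libraries of both groups. MSTRG.17401 ranged from 39.5 to 2119.5 in controls and from 68.9 to 3025.5 after nitroglycerin. The neighbouring row MSTRG.17400 was low where MSTRG.17401 was high, at 15.4 FPKM in N1 and 1800.2 in C1. Assembled transcripts of both rows lie on chromosome 6 in opposite directions, at chr6:75590111-75614589 on the plus strand and chr6:75606746-75623022 on the minus strand, so their spans, introns included, overlap. Summed, this pair read 1839.7, 2844, 2911 and 2034.5 in C1 to C4 and 2522, 2499.6, 1143 and 3661 in N1 to N4, which is more even than either row alone but still overlapping between groups. Whether reads were assigned by strand is not given in the sources used here.

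The highest SRP RNA row was steady, whereas several others of high level switched. Of the 21 SRP RNA rows, 11 were above 0 in every library. MSTRG.5245 read 1987, 3008, 2607 and 2505 FPKM in C1 to C4 and 2698.5, 3856, 3149.6 and 2935 in N1 to N4. These groups overlapped, and the log2 difference of 0.33 (SE 0.203, limma adjusted p = 0.263) was near the median of all rows. MSTRG.18655 read 0, 1359, 1190.3 and 1132 FPKM in C1 to C4 and 0, 0, 0 and 1716 in N1 to N4. MSTRG.18658 followed it at 0.976 to 0.977 times its value wherever both were above 0. The SRP share therefore ranged from 1.29% in C1 to 4.83% in C2, and from 1.85% in N1 to 5.10% in N4, with no separation of the groups.

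**Figure D3:**
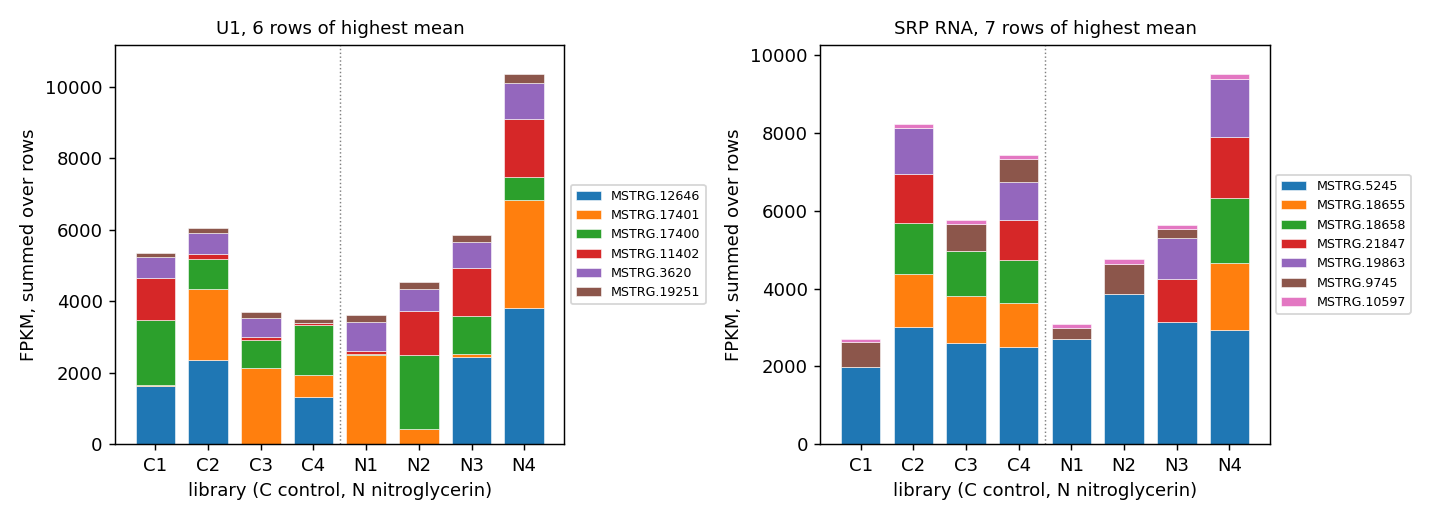
Bars stack the FPKM of the 6 highest U1 rows (left) and the 7 highest SRP RNA rows (right) in each library. Single rows appear in some libraries and are missing in others of the same group, such as MSTRG.12646 in N1 and N2 and MSTRG.18655 in C1 and N1 to N3, while MSTRG.5245 stays between 1987 and 3856.

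Such zeros were frequent among abundant members. Of the 41 members with a mean of at least 100 FPKM, 12 (29.3%) were listed at 0 in some library, with 33 such values in all. Of the 102 rows outside the members at that level, 1 (0.980%) was. With only rows that held an annotated transcript, it was 12 of 37 members (32.4%) and 1 of 95 others (1.05%). Since these RNAs are found in all cells, a 0 here is given only as a listed value.

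The remaining splicing RNAs were lower. The U4 row MSTRG.16231 had 69.8 to 109.9 FPKM in controls and 105 to 159 after nitroglycerin (log2 difference 0.56, SE 0.221, limma adjusted p = 0.115). MSTRG.5506, the highest U4 row, was at 0 in C2, C4, N2 and N4 and at 205 to 331 in the other 4 libraries, and MSTRG.5505 was at 0 in C4, N3 and N4. The U6 members held only assembled transcripts, with means of at most 5.8 FPKM. MSTRG.7040 read 4.71 to 6.02 in controls and 4.88 to 7.68 after nitroglycerin, MSTRG.21828 3.11 to 4.58 and 3.42 to 5.31, and MSTRG.864 was at 0 in C2 and N2. The assembled transcript of MSTRG.864 is a single exon of 1880 bases at chr1:94896792-94898671, against a median of 107 bases for U6 genes in RefSeq (GRCr8), and its class code x marks overlap with an exon on the opposite strand. The value of this row is that of the longer transcript. U11, the first RNA of the minor spliceosome, had 1 row of 0 to 0.137 FPKM in controls and 0.0894 to 0.314 after nitroglycerin, too low to be tested.

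All 4 LOC257642 rows had negative log2 differences, and none passed the test. MSTRG.6638 read 8769, 1298, 2559 and 2785 FPKM in C1 to C4 and 1386, 1341, 1413.5 and 1897 in N1 to N4. C1 stood far above the rest, and C2 lay below all nitroglycerin libraries. Its log2 difference was -1.01 (SE 0.499, limma adjusted p = 0.177). MSTRG.17198 and MSTRG.6625 matched each other to 0.999 to 1.01 in every library, and read 321 FPKM in C2 and 3442 and 3407 in C1. MSTRG.6623 had the lowest p of the class, with 964 to 3420 FPKM in controls and 495 to 1075 after nitroglycerin (log2 difference -1.02, SE 0.417, limma adjusted p = 0.121). The class share was 8.93, 1.69, 4.25 and 4.80% in C1 to C4 and 2.62, 1.68, 1.81 and 2.97% in N1 to N4. Its mean difference of -2.65 percentage points was -1.31 without C1, and without C2 the groups did not overlap.

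5.8S rRNA was the highest class, and its rows moved less together. MSTRG.76 read 14088, 6091, 8306 and 8942.5 FPKM in C1 to C4 and 7451, 7177, 6294 and 7057 in N1 to N4. MSTRG.74 read 9376, 6005, 9734 and 7331 in C1 to C4 and 7882, 5991.5, 5060 and 5022 in N1 to N4. Both overlapped between groups, with log2 differences of -0.36 (SE 0.264) and -0.44 (SE 0.243) and limma adjusted p of 0.335 and 0.218. MSTRG.15933 was at 455 to 1028 and 585 to 729 FPKM, with a log2 difference of 0.07. MSTRG.76 merges the annotated 5.8S gene with other transcripts, 1 of which, assembled under another gene's name at chr1:11963603-11972253, has 2 exons and 1432 bases, against 156 bases for 5.8S rRNA in RefSeq. Its value covers the merged locus. The only 2 5S rRNA members held assembled transcripts alone, with MSTRG.1075 at 5.52 to 7.23 FPKM in controls and 6.17 to 10.8 after nitroglycerin and MSTRG.4890 at 0.567 to 1.56 and 0.611 to 1.89.

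**Figure D4:**
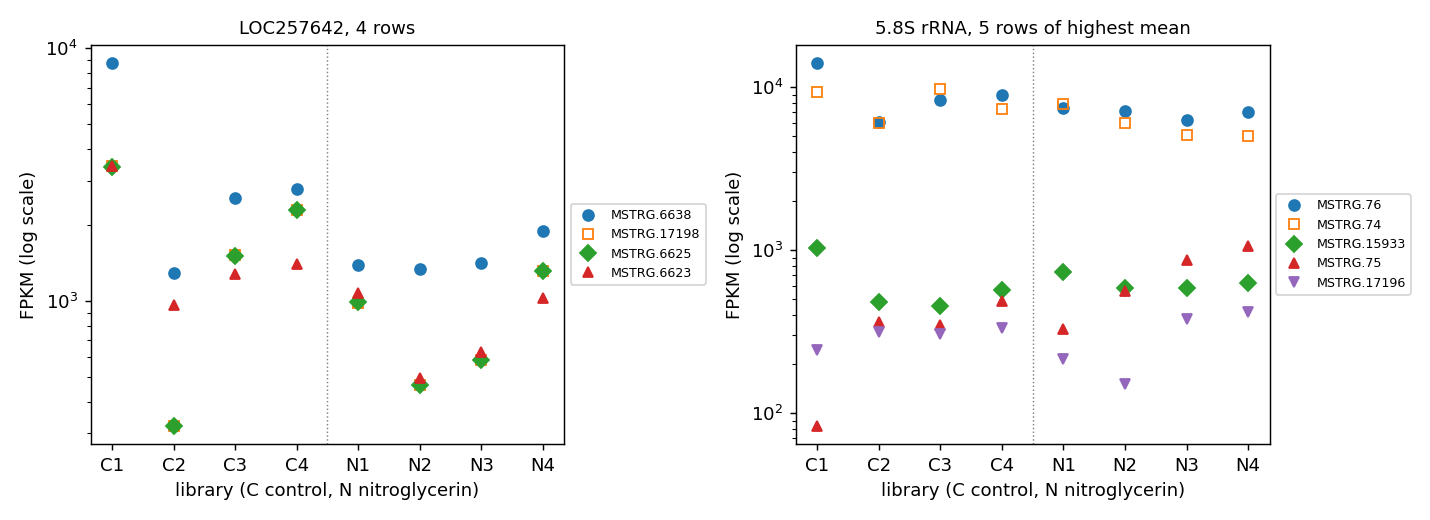
Points give the FPKM of the 4 LOC257642 rows (left) and the 5 highest 5.8S rRNA rows (right) in each library, on log axes. C1 is highest for every LOC257642 row, the paired rows MSTRG.17198 and MSTRG.6625 coincide, and C2 lies at 321 for both.

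By limma on log2(FPKM + 1), the filter of at least 1 FPKM in 4 libraries left 79 members, of which 0 rose and 0 fell at the adjusted threshold of 0.05. Of all 12977 rows tested, 1.35% were called, 1.29% upward and 0.0616% downward. At an unadjusted p under 0.05, 18 members were higher and 1 was lower, against 34.1% and 1.02% of all rows. In 12 members all nitroglycerin values lay above all control values (7 of 7SK, 3 of U1 and 2 of U2) and in 0 below, against 24.2% and 0.478% of all rows. Rows of a class are not independent, since some, such as MSTRG.9016 and MSTRG.21764, kept a nearly fixed ratio. The median log2 difference was 0.21 over the tested members and 0.30 over all rows. By class it was 0.54 for 7SK (17 rows), 0.57 for U2 (14 rows), 0.60 for U1 (9 rows), 0.17 for SRP RNA (15 rows), 0.07 for 5.8S rRNA (9 rows) and -0.93 for LOC257642 (4 rows).

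Because the median row was 0.30 higher on the log2 scale after nitroglycerin, the same fit was made on the rescaled values, where that median was 0.01. There 0 members passed, against 0.131% of all rows (0.0308% higher and 0.1% lower). At an unadjusted p under 0.05, 0 were higher and 3 lower, against 5.5% and 6.44% of all rows. Groups did not overlap in 0 members upward and 1 downward, a LOC257642 row, against 3.78% and 4.45%. The median member stood at -0.06. The class medians were 0.22 for 7SK, 0.19 for U2, 0.21 for U1, -0.11 for SRP RNA, -0.23 for 5.8S rRNA and -1.32 for LOC257642. With only rows of at least 1 FPKM in all 8 libraries tested, 4 of 47 members rose, against 12.4% of 9229 rows (0.325% fell). They were the 7SK rows MSTRG.12456, MSTRG.21764 and MSTRG.1507 and the U2 row MSTRG.11413, of which all but MSTRG.21764 are named only because they passed here.

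**Figure D5:**
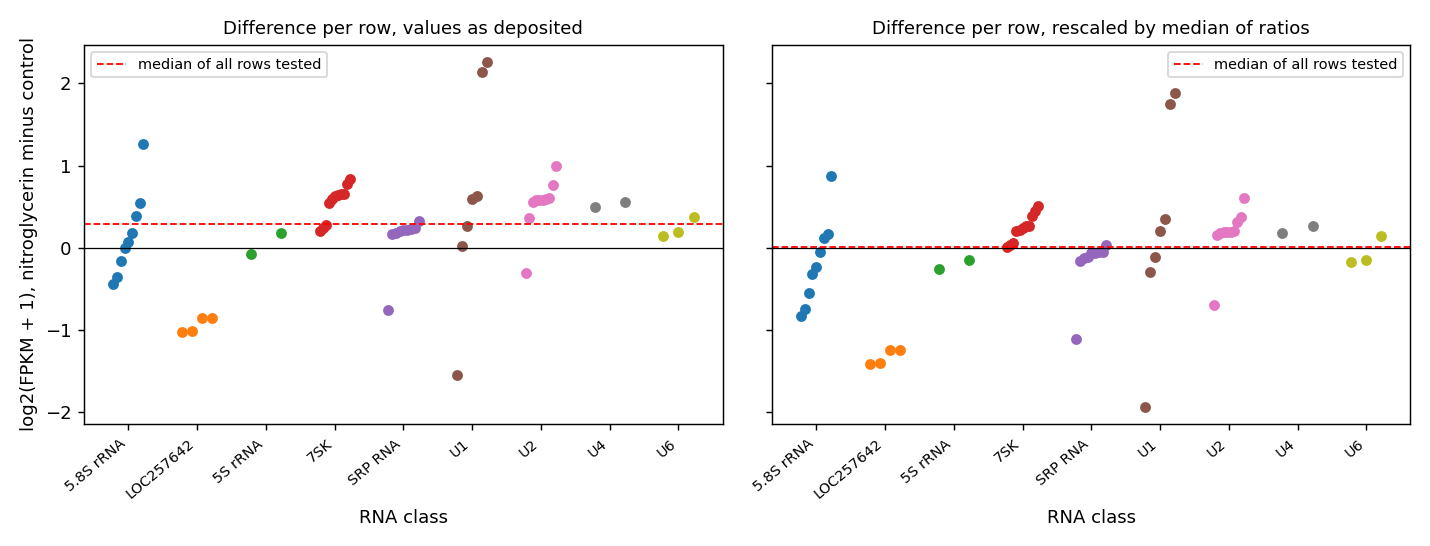
Each point is the log2 difference (nitroglycerin minus control, of log2(FPKM + 1)) of 1 tested member above 0 in every library, by class, for values as deposited (left) and rescaled (right). The dashed line is the median of all 12977 rows, 0.30 on the left and 0.01 on the right, and the 4 LOC257642 rows lie below it in both panels.

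The proteins that work with these RNAs gave few calls. Of 111 tested rows in 11 lists, 2 rose and 0 fell, 55 were higher and 1 lower at an unadjusted p under 0.05, and the median log2 difference was 0.35. Over all rows 1.35% were called, 34.1% were higher and 1.02% lower at an unadjusted p under 0.05, and the median was 0.30. Prpf3, a protein of the U4/U6 particle, read 2.72, 3.84, 3.53 and 3.86 FPKM in C1 to C4 and 5.8, 5.97, 5.46 and 6.33 in N1 to N4. Its log2 difference was 0.63 (SE 0.119, limma adjusted p = 0.0492), and 1 of 15 alternative settings kept the call. Ints11, the endonuclease of the Integrator complex that trims the 3′ ends of U RNAs, read 2.84, 2.62, 2.69 and 2.55 FPKM in C1 to C4 and 5.34, 3.60, 5.17 and 5.40 in N1 to N4. Its log2 difference was 0.67 (SE 0.128, limma adjusted p = 0.0492), kept in 2 of 15 alternatives. On the rescaled values 0 of the 111 passed, and their median was 0.05.

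Prpf3 was 1 of 26 tested Sm and snRNP proteins and Ints11 1 of 16 genes of U RNA transcription and 3′ processing, and in these lists 13 and 10 rows were higher at an unadjusted p under 0.05, against 34.1% of all rows. The other lists had no call, and each is given by its row of lowest p. Hexim2, an inhibitor of P-TEFb in the 7SK particle, had 2.45 ± 0.660 FPKM in controls and 4.05 ± 0.633 after nitroglycerin (limma adjusted p = 0.0672), with 4 of 5 rows of its list higher at an unadjusted p under 0.05. That row, MSTRG.3897, held only assembled transcripts, and the Hexim2 row with an annotated transcript, MSTRG.3898, had 0.710 ± 0.191 and 0.585 ± 0.158 FPKM and was too low to be tested. Srp68, a signal recognition particle protein, had 5.43 ± 0.564 and 7.32 ± 0.255 FPKM (limma adjusted p = 0.0672, 4 of 8 rows). Znrd1, an RNA polymerase I subunit, had 2.74 ± 0.481 and 4.69 ± 0.634 (limma adjusted p = 0.0562, 6 of 11 rows), and Polr3gl, an RNA polymerase III subunit, 1.11 ± 0.109 and 2.07 ± 0.484 (limma adjusted p = 0.0643, 8 of 20 rows, with 1 lower).

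Ssb, the La protein that binds new RNA polymerase III transcripts, had 6.35 ± 0.749 and 8.64 ± 1.15 FPKM (limma adjusted p = 0.0852, 2 of 2 rows). Rpl11, a partner of 5S rRNA, had 18.4 ± 2.79 and 24.6 ± 1.35 (limma adjusted p = 0.0838, 1 of 2 rows). Rnpc3 of the minor spliceosome had 2.21 ± 0.479 and 3.47 ± 0.673 (limma adjusted p = 0.0773, 2 of 7 rows). Gemin2 of the SMN complex, which loads Sm proteins onto U RNAs, had 1.34 ± 0.528 and 2.25 ± 0.405 (limma adjusted p = 0.0997, 1 of 8 rows). Dkc1, the pseudouridine synthase of H/ACA particles, had 3.35 ± 0.578 and 4.51 ± 0.360 (limma adjusted p = 0.0921, 4 of 6 rows). The medians of these lists as deposited were 0.27 to 0.44, against 0.30 over all rows. Only that of the signal recognition particle proteins lay below the median of all rows. On the rescaled values the list medians were -0.07 to 0.13, against 0.01 over all rows.

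Other small structural RNAs, namely the nucleolar and Cajal body RNAs, RNase P RNA, telomerase RNA and vault RNA, held 0.357 to 0.546% of the summed FPKM in controls and 0.603 to 0.812% after nitroglycerin. These shares did not overlap. Among single rows tested, 23.5% also had all nitroglycerin shares above all control shares. Of 90 tested rows, 1 rose and 20 were higher at an unadjusted p under 0.05, against 1.35% called and 34.1% higher among all rows. Their median log2 difference was 0.33, against 0.30 over all rows. On the rescaled values it was 0.08, and 0 rows rose or fell. There 5 were higher and 2 lower at an unadjusted p under 0.05, against 5.5% and 6.44% of all rows. The row that rose, MSTRG.4097 (SCARNA16), was listed at 0 in C1, C3 and C4 and at 3.78 FPKM in C2, and read 22.7, 21.3, 4.29 and 28.4 in N1 to N4 (limma adjusted p = 0.0492, kept in 2 of 14 alternatives).

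Libraries differed in other ways alongside these values. C1 had the largest summed FPKM, 213190, against 161940 to 187500 in the other 7, and aligned sequence was 6.77 to 8.86 Gb. Among the 100 highest rows, the 38 members held 26.6 ± 2.60% in controls and 26.1 ± 1.79% after nitroglycerin. The 62 others held 33.0 ± 7.09% and 22.4 ± 0.770%, a difference of -10.53 percentage points. Most of it lay in 4 of these rows, which carry clone-based names and are described under Other observations. Together those 4 rows differed by -10.03 points, so the difference was not one of the 62 rows in general. Summed macrophage markers were 16.3 to 22 FPKM in controls and 22.8 to 38.6 after nitroglycerin (5 of 6 symbols found, all above 0 in every library). Of single rows tested, 24.2% also had all nitroglycerin values above all control values. Cd163 rose (limma adjusted p = 0.0492) but was not called on the rescaled values (limma adjusted p = 0.160). Skeletal muscle markers summed to 21.0 to 30.9 and 13.6 to 20.9 (4 of 6 found, all above 0 in every library). Of these, Ckm fell, and Acta1 had a lower mean with overlapping groups. Tnnt3 (4.07 and 4.68 FPKM) and Mylpf (0.0832 and 0.151 FPKM) had higher means after nitroglycerin. Smooth muscle markers, which define the aortic wall, were abundant at 2019.9 to 2700 and 1256 to 2636. Their sums overlapped, like those of endothelium, fibroblasts and erythroid cells, but single rows differed. At an unadjusted p under 0.05, 1 of 6 smooth muscle rows was higher (Lmod1) and 1 lower (Cnn1). Higher were 3 of 5 endothelial and 2 of 4 fibroblast rows, with 0 lower, against 34.1% of all rows. Tek read 3.44 to 6.35 FPKM in controls and 7.54 to 8.76 after nitroglycerin, while Vwf averaged 23.6 in both groups. Adipocyte markers summed to 110 in N1 and to 9.22 to 24.4 in the other 7 libraries. Their part in the member values was not tested, and in whole tissue a change in cell makeup cannot be told apart from a change in RNA per cell.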

How the data were processed

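RNA of rat aorta was sequenced in 8 libraries, 4 per group. The deposited gene table gives FPKM per row and library, and a second deposited table gives FPKM and coverage signal per base for assembled transcripts, with CPC and CNCI coding scores that were not used here. Bowtie 0.12.2, HISAT2 2.0 and StringTie 1.3.0, with the builds Rnor_6.0 and mm8, are listed per the submitters' processing notes, which give them no roles. Coordinates are those of the second table, whose build is not given in the sources used here. Within a library coverage was a fixed multiple of FPKM, and that multiple was read as aligned gigabases. FPKM are relative and are not counts, so no counting interval is given.

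Shares are the summed FPKM of a class over that of all 27742 rows and carry no test. Rows reaching 1 FPKM in 4 or more libraries were tested with limma 3.58.1 in R 4.3.3 on log2(FPKM + 1), which understates changes of low rows, with a mean-variance trend and two-sided Benjamini-Hochberg adjusted p under 0.05. Median-of-ratios factors for rescaling lay between 0.742 and 0.996 for controls and between 1.07 and 1.22 for nitroglycerin. Fitted differences are given for named rows above 0 in every library. Rows named were all LOC257642 rows, the 3 highest of each other class, every row called, and the row of lowest p of each list without a call; others are named as chosen after their values were seen. The members and lists were chosen with earlier results of these data known. The fit was tested on simulated data. RefSeq lengths are from GRCr8. Plots were made in Python 3.11.15 with matplotlib 3.10.9. Each library was left out in turn, and other pseudocounts, filters, scalings, eBayes options and a replicate block were tried.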

Additional observations from a re-analysis of the deposited data

Results flagged for a closer look

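Of 82 groups of 4 values examined (28 named rows and 13 shares, in each group), 7 held a library far from the other 3 by Dixon's test, or 8.54%, where chance gives about 1 in 20. For MSTRG.6638 (LOC257642), N4 read 1897.1 FPKM and the other nitroglycerin libraries 1341 to 1413.5. For MSTRG.20171 (7SK), N4 was listed at 0 and the others read 3004 to 3221. For MSTRG.18655 (SRP RNA), C1 was listed at 0 with the other controls at 1132 to 1359, and N4 read 1715.7 with the other nitroglycerin libraries at 0. MSTRG.18658 (SRP RNA) repeated this, with C1 at 0 against 1106 to 1326 and N4 at 1674.1 against 0. For MSTRG.21269 (U2), N2 read 4783.8 and the others 922 to 1114.5. Of the 7, 5 rest on values listed at 0, and the 4 of MSTRG.18655 and MSTRG.18658 are not independent, since both rows kept a fixed ratio. With 3 of 4 values at 0, as in N1 to N3 for these rows, the test gives its highest possible value whatever the fourth.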

How the results depend on the processing

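The U2 shares stayed separate in all share settings tried. Their difference of 1.71 percentage points was 1.39 with every U2 row and 1.96 with annotated rows as denominator. Rescaling a library does not alter a share, and the rescaled U2 sums overlapped (4595 to 8246 FPKM in controls, 6791 to 7120 after nitroglycerin). The members' difference of -0.511 points became 2.14 without LOC257642 and ranged from -1.43 to 0.466 without 1 library. Calls over all rows (175) were 7 with a pseudocount of 0.1, 26 unfiltered, 1178 with at least 1 FPKM in all 8 libraries, 17 rescaled, 14 scaled to non-member FPKM, 40 with no trend and a robust fit, and 0 with the replicate block, where 3869 rows were higher and 168 lower at an unadjusted p under 0.05. The labels give no pairing of libraries with the same number, and the main fit used none. Correlations (r) of deviations from the group mean were 0.133, -0.011, -0.012 and 0.121 for the same number. For different numbers they were -0.1755 to 0.0875, and these values cannot show whether libraries were paired. Without 1 library the calls over all rows ranged from 3 to 209. Member calls were 4 with the 8-library filter and otherwise 0, and partner calls (2) were 15 there, 0 to 1 without 1 library and otherwise 0. The other small RNAs (1) gave 3 there, 0 to 2 without 1 library and otherwise 0. The median shift of 0.30 was 0.15 unfiltered and 0.012 rescaled. Rescaling reversed MSTRG.15933 to -0.31, MSTRG.1075 to -0.15, MSTRG.5245 to -0.063, MSTRG.17401 to -0.12, MSTRG.7040 to -0.14 and MSTRG.21828 to -0.17. Without 1 library MSTRG.15933 ranged from -0.057 (C3) to 0.33 (C1) and was -0.03 without C2. MSTRG.4890 ranged from -0.24 (N1) to 0.037 (N2) and was 0.02 without C4. MSTRG.17401 ranged from -1.01 (C1) to 1.37 (N3) and was -0.35 without N1 and -0.44 without N4. Causes were not tested. A length-weighted share was not run, since the gene table gives no lengths.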

Other observations

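Of the 6 highest rows of the whole table, 4 carry clone-based names and are not members, and were singled out after their values were seen: MSTRG.6622 (AABR07015055.1), MSTRG.6617 (AABR07015042.1), MSTRG.6626 (AABR07015067.1) and MSTRG.6637 (AABR07015078.2). MSTRG.6637 was 1.43 to 1.55 times the LOC257642 row MSTRG.6638 in every library, with 12931 FPKM in C1, 1983 to 4135 in the other controls and 2024 to 2721 after nitroglycerin. MSTRG.6617 read 20109, 2861, 6598 and 6576 FPKM in C1 to C4 and 2577 to 4995 after nitroglycerin. MSTRG.6622 was high in C1 and C4, at 23142 and 23379, against 4012.5 to 7389 in C2 and C3 and 2232.5 to 4294 after nitroglycerin. MSTRG.6626 stayed between 3956 and 5444 in all 8 libraries. The 4 rows together held 28.9, 10.0, 11.7 and 21.4% of the summed FPKM in C1 to C4 and 6.58 to 8.83% after nitroglycerin, which did not overlap. What these rows encode was not analysed here.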
